A study of Homo sapiens with 26 samples.

Results

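Footprints on the coding sequences of 8 enzymes of cholesterol synthesis, HMGCS1, IDI1, FDPS, FDFT1, SQLE, LSS, CYP51A1 and DHCR7, were examined in 26 ribosome profiling libraries. The enzymes were taken by gene name from the deposited count tables, where each occupied 1 of 19478 rows, and all 8 passed the low-count filter of every test. None of them takes up cholesterol, so genes of uptake are given separately. The series, by its title, concerns distortions that nucleases leave in footprint libraries when ribosomal RNA (rRNA) is depleted.

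There were 3 cell lines, each lysed in cycloheximide, a drug that holds ribosomes on mRNA. HEK293T, a human embryonic kidney line, gave 2 libraries each without depletion and with Ribo-Zero Gold, RiboCop and NEBNext, all of 15 to 35 nt fragments. HEK293FT, another line of that origin, gave 1 undepleted library and 1 with custom oligos, also of 15 to 35 nt. K562, a line from a chronic myeloid leukaemia, gave a size-selection table with 1 undepleted and 1 NEBNext library at each of 20 to 34 and 20 to 60 nt. It also gave a kit table of 20 to 34 nt fragments, with 2 libraries each without depletion and with FastSelect, riboPools and riboPools without heat (cold elution). That table held 1 library each with Ribo-Zero Plus, Ribo-Zero Plus with oligos, with formaldehyde, and with both, additions that the labels do not explain. NEBNext and Ribo-Zero Plus digest rRNA bound to DNA probes, Ribo-Zero Gold, RiboCop and riboPools remove it on beads, and FastSelect keeps it from being reverse transcribed. HEK cells grew in DMEM and K562 cells in RPMI, both with serum. Cell line, medium, size range and experiment therefore cannot be told apart between the lines. Both K562 size-selection libraries titled undepleted also carry a label that names NEBNext, and they were grouped by title.

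Cells build cholesterol from acetyl-CoA through mevalonate, isoprenoids and squalene. When sterols in the endoplasmic reticulum run low, the escort protein SCAP carries the SREBP precursors to the Golgi, where proteases free a fragment that enters the nucleus and activates genes of cholesterol synthesis and uptake. The INSIG proteins hold SCAP back when sterols are plentiful. A footprint count combines how much mRNA is present with how many ribosomes each mRNA carries, and these were not separated here.

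Promoters of 6 of the 8 genes were matched in RefSeq (GRCh38.p14). They are shown because the enzymes are textbook targets of SREBP, which acts at promoters together with the factors NF-Y and Sp1. The searches covered both strands from 250 bases before to 50 after each start. The CCAAT box that NF-Y binds, searched as CCAAT, was present in 5 of the 6 promoters and in 34.6% of 35116 RefSeq promoters of that length. The GC box that Sp1 binds, searched as GGGCGG, was present in 6 of 6 and in 45.0% of all. The sterol regulatory element, searched as TCACNCCAC, was present in 0 of the 6 and in 1.13% of all, so those exact letters do not occur in these windows. A match describes the letters only. The promoters of 4 genes at different steps are printed 5′ to 3′ in the direction of the gene, up to the earlier of the RefSeq and GENCODE starts, with each CCAAT box (ATTGG on the other strand) in capitals. HMGCS1 and DHCR7 each held 2 boxes and FDPS held 3. CYP51A1 held none.
HMGCS1, chr5:43313494-43313662, minus strand: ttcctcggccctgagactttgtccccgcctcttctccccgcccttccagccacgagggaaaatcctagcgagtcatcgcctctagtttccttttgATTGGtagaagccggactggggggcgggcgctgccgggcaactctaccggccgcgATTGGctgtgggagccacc
FDPS, chr1:155308616-155308865, plus strand: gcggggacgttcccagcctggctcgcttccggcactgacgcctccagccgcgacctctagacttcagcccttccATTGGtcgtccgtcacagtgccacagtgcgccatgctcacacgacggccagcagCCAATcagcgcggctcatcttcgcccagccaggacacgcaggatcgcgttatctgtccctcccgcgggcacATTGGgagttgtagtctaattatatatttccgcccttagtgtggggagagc
CYP51A1, chr7:92134531-92134727, minus strand: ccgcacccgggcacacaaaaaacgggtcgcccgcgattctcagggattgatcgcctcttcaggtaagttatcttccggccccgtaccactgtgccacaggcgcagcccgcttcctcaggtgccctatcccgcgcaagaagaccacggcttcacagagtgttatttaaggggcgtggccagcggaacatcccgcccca
DHCR7, chr11:71448436-71448643, minus strand: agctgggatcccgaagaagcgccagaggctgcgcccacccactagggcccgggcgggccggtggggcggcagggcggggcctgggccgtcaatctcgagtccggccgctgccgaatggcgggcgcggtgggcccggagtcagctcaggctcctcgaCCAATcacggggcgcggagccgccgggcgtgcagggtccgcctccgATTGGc

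The counted transcripts lie, in GENCODE release 29 coordinates on GRCh38, at chr5:43289395-43313493 (HMGCS1, minus strand, 11 exons), chr10:1039908-1049170 (IDI1, minus, 5 exons), chr1:155308916-155320665 (FDPS, plus, 11 exons), chr8:11795573-11839304 (FDFT1, plus, 10 exons), chr8:124998506-125022283 (SQLE, plus, 11 exons), chr21:46188446-46228824 (LSS, minus, 22 exons), chr7:92112151-92134530 (CYP51A1, minus, 10 exons) and chr11:71434414-71448435 (DHCR7, minus, 9 exons). The counts cover the coding exons. No coding exon of the 8 overlapped the coding exons of another counted transcript. FDPS has processed pseudogenes and HMGCS1 and IDI1 have paralogs, and the handling of reads that match several genes is not given in the sources used here, so their counts are uncertain to that extent.

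Library totals ran from 120019 to 421521 counts in the HEK293T table, 46858 to 441249 in the K562 size-selection table, 116742 to 5795774 in the K562 kit table, and were 900763 and 5747772 in HEK293FT. The labelled lines were checked against markers. Embryonic and fetal globins HBG1, HBG2 and HBE1 and the erythroid factor GATA1 had 0 counts in all HEK libraries and at least 290 CPM (counts scaled to a common library total) in every K562 library. The HEK markers PAX2, LHX1 and EYA1 were at or below 8.33 CPM in every HEK library.

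**Figure D1:**
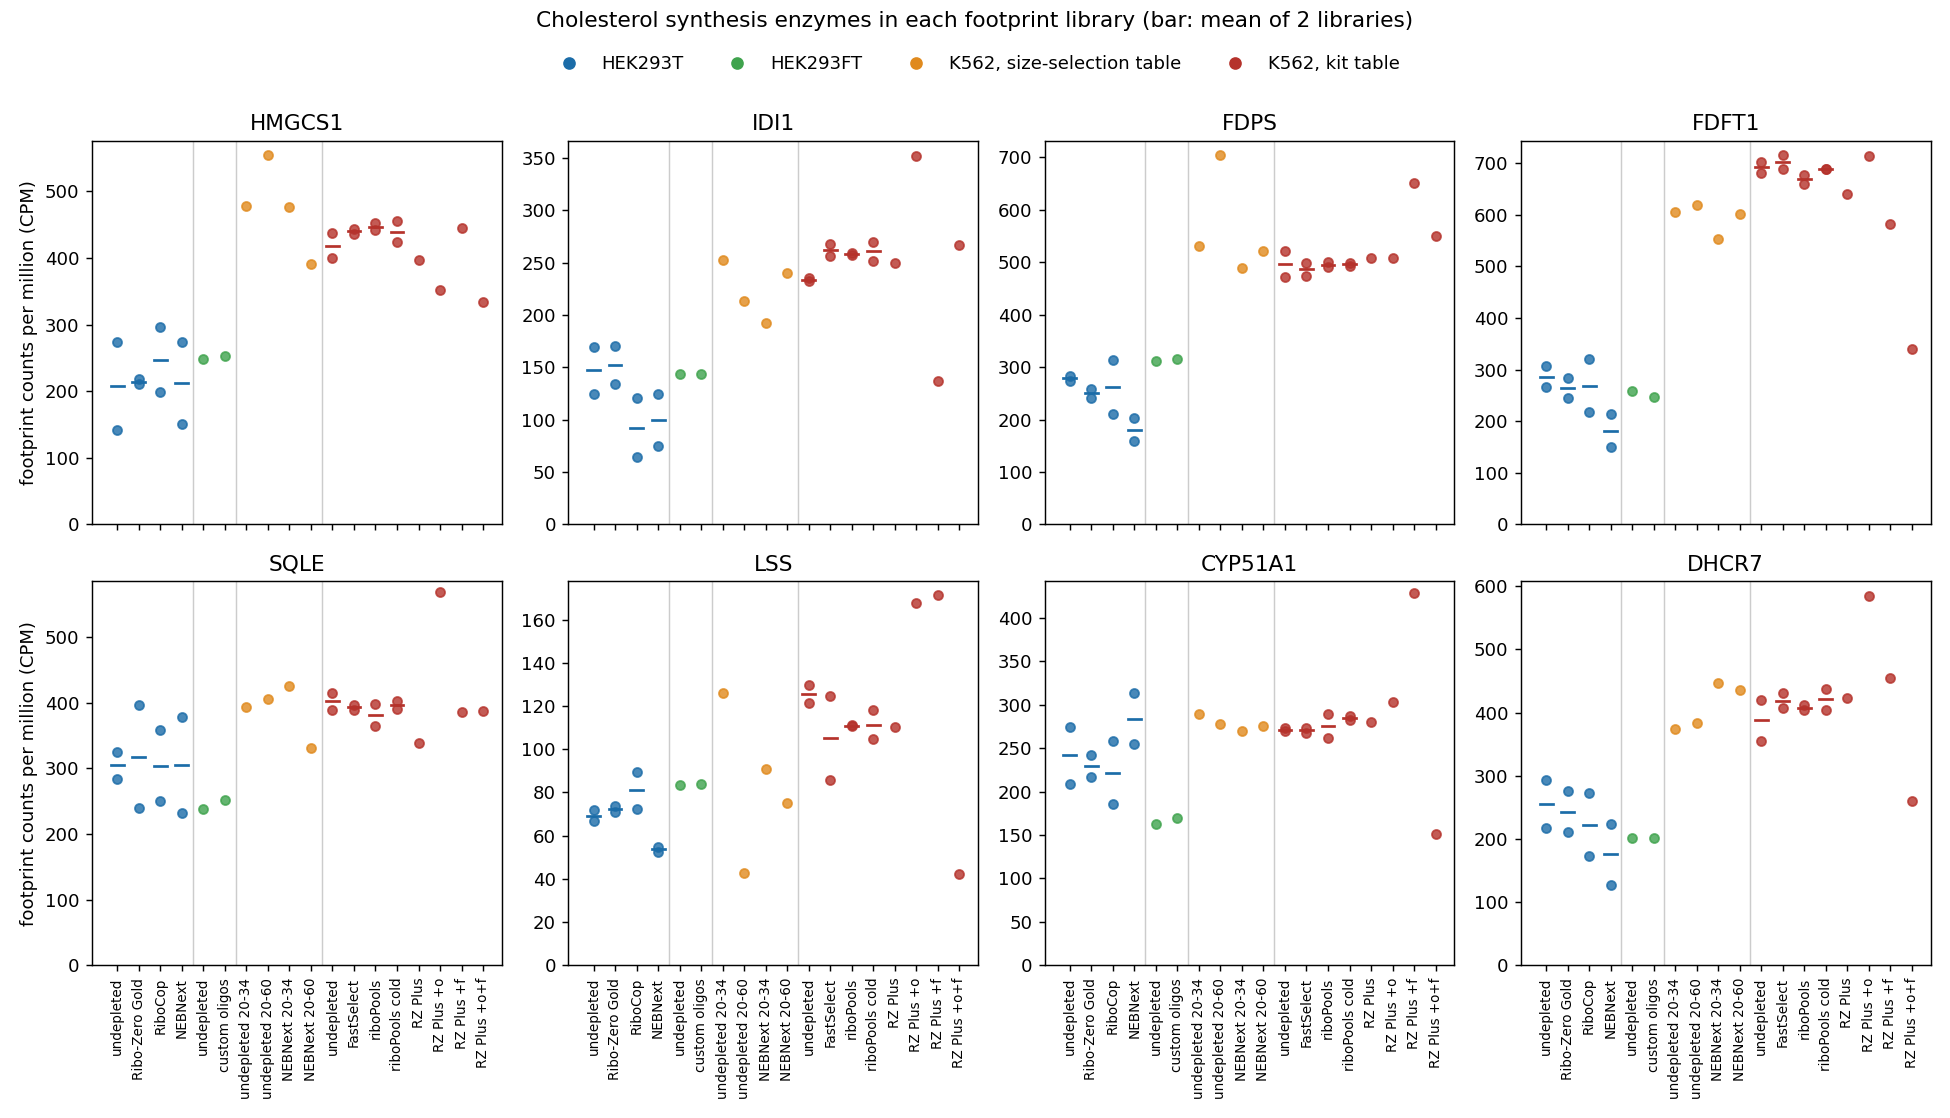
CPM of each enzyme (linear axes from 0, a separate scale per gene) in every library, by condition along the horizontal axis and coloured by table. Points are libraries and bars are means of 2 libraries, RZ Plus is Ribo-Zero Plus, o is oligos and f is formaldehyde. FDFT1 lay between 553 and 715 CPM in the K562 libraries without Ribo-Zero Plus and between 150 and 320 CPM in the HEK libraries.

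The first enzymes of the pathway were compared across the undepleted libraries, as CPM. HMGCS1, which makes HMG-CoA, the precursor of mevalonate, measured 142 and 274 in HEK293T, 248 in HEK293FT, 438 and 399 in the K562 kit table, and 478 (20 to 34 nt) and 555 (20 to 60 nt) in the K562 size-selection table. All 4 K562 libraries lay above all 3 HEK libraries, and the HEK293T pair itself differed by 1.93-fold. IDI1, which interconverts the isoprenoid building blocks IPP and DMAPP, measured 125 and 169 in HEK293T, 143 in HEK293FT, 235 and 233 in the kit table, and 252 and 213 in the size-selection table. Its K562 and HEK libraries did not overlap. FDPS, which joins those blocks into farnesyl diphosphate and is the target of bisphosphonate drugs, measured 283 and 274 in HEK293T, 312 in HEK293FT, 521 and 471 in the kit table, and 531 and 704 in the size-selection table. The HEK293T pair was close for this gene, and again no K562 library fell among the HEK libraries.

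The enzymes that make and close squalene followed. FDFT1, squalene synthase, the first enzyme committed to sterols, measured 267 and 306 CPM in HEK293T, 259 in HEK293FT, 703 and 681 in the K562 kit table, and 604 and 619 in the size-selection table. The gap between the lines was widest here, with the lowest undepleted K562 library at 604 and the highest undepleted HEK library at 306. SQLE, which oxidises squalene and is a rate-limiting step of the later pathway, measured 283 and 326 in HEK293T, 239 in HEK293FT, 415 and 390 in the kit table, and 394 and 405 in the size-selection table. K562 libraries were again all higher, by a smaller margin. LSS, which closes the epoxide to lanosterol, measured 66.7 and 71.7 in HEK293T, 83.3 in HEK293FT, 122 and 130 in the kit table, and 126 and 42.7 in the size-selection table. The value of 42.7 rests on 2 counts and lies under every HEK library, so the groups overlapped for LSS.

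The last enzymes act on the sterol rings. CYP51A1, which demethylates lanosterol and is related to the target of azole antifungals, measured 275 and 209 CPM in HEK293T, 163 in HEK293FT, 273 and 269 in the K562 kit table, and 289 and 277 in the size-selection table. K562 libraries fell in a narrow band, with 1 HEK293T library inside it. DHCR7, which completes cholesterol from its last precursor and is mutated in Smith-Lemli-Opitz syndrome, measured 217 and 293 in HEK293T, 202 in HEK293FT, 419 and 356 in the kit table, and 373 and 384 in the size-selection table. Its K562 and HEK libraries did not overlap.

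In all, 6 of the 8 enzymes, every one but LSS and CYP51A1, were higher in all 4 undepleted K562 libraries than in all 3 undepleted HEK libraries. Of 6543 transcripts with a mean of at least 10 counts, 19.1% separated in that way. Over the 12 K562 libraries without Ribo-Zero Plus and all 10 HEK libraries, 5 of 8 separated (HMGCS1, IDI1, FDPS, FDFT1 and DHCR7), against 8.51% of 9118 transcripts. With the 4 Ribo-Zero Plus libraries included, HMGCS1, FDPS and FDFT1 still separated, 3 of 8 against 5.04% of 8892 transcripts. Summed over the 8 enzymes, CPM ran from 1245 to 2010 in the 10 HEK libraries and from 2331 to 3551 in the 16 K562 libraries. The lowest K562 sum was that of Ribo-Zero Plus with oligos and formaldehyde.

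To test the difference between the lines, the 7 undepleted libraries of all tables entered a single edgeR quasi-likelihood fit with TMM scaling, in which a gene was called at a Benjamini-Hochberg adjusted p under 0.05 over 5551 genes. Between the K562 kit table and HEK293T (2 libraries each), 22.0% of genes were called higher in K562, and 7 of the 8 enzymes were. FDFT1 rose most, by 1.37 ± 0.15 on the log2 scale (SE, adjusted p = 4.88e-18), a fitted fold of 2.59. HMGCS1 rose by 1.07 ± 0.18 (adjusted p = 3.24e-08) and FDPS by 0.95 ± 0.16 (adjusted p = 5.56e-08). The other calls were LSS at 0.96 ± 0.32, IDI1 at 0.75 ± 0.23, DHCR7 at 0.70 ± 0.17 and SQLE at 0.50 ± 0.16. CYP51A1 was not called, at 0.30 ± 0.19 (adjusted p = 0.19), with a 95% interval of the fold from 0.952 to 1.60. The median over the 8 enzymes was 0.85, and over all genes tested it was -0.01. The undepleted HEK293T libraries were shallow, at 8 to 50 counts per enzyme. DESeq2 called 4 of the 8, without IDI1, SQLE and LSS, and called 733 of 5551 genes higher in K562. Without HEK293T undepleted replicate 1 edgeR called 5 (IDI1 and SQLE lost), and without replicate 2 it called 6 (LSS lost). SQLE also lost its call under total counts and with a filter on a mean of at least 50 counts.

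The second K562 experiment, the size-selection table, shares the HEK293T libraries with that comparison and so is not independent of it. There 15.9% of genes were called higher than in HEK293T, and 5 of the 8 enzymes were. HMGCS1 rose by 1.29 ± 0.23, FDFT1 by 1.17 ± 0.21 and FDPS by 1.12 ± 0.21, all on the log2 scale. IDI1 (0.80 ± 0.30, adjusted p = 0.0309) and DHCR7 (0.63 ± 0.24, adjusted p = 0.0319) were also called. LSS at 0.75 ± 0.44, SQLE at 0.47 ± 0.23 and CYP51A1 at 0.37 ± 0.26 were not. Of all calls, 54.4% were higher in K562 with TMM scaling and 43.7% with total counts alone, which also moved the median of all genes from -0.02 to -0.16. IDI1 and DHCR7 lost their calls under total counts, DESeq2, either other filter, without HEK293T undepleted replicate 1, or without the 20 to 34 nt library. Between the K562 tables, the enzyme differences lay between -0.21 and 0.22, edgeR and DESeq2 called 0 of 8, 0 of 8 had an unadjusted p under 0.05, and 0.288% of all genes were called.

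**Figure D2:**
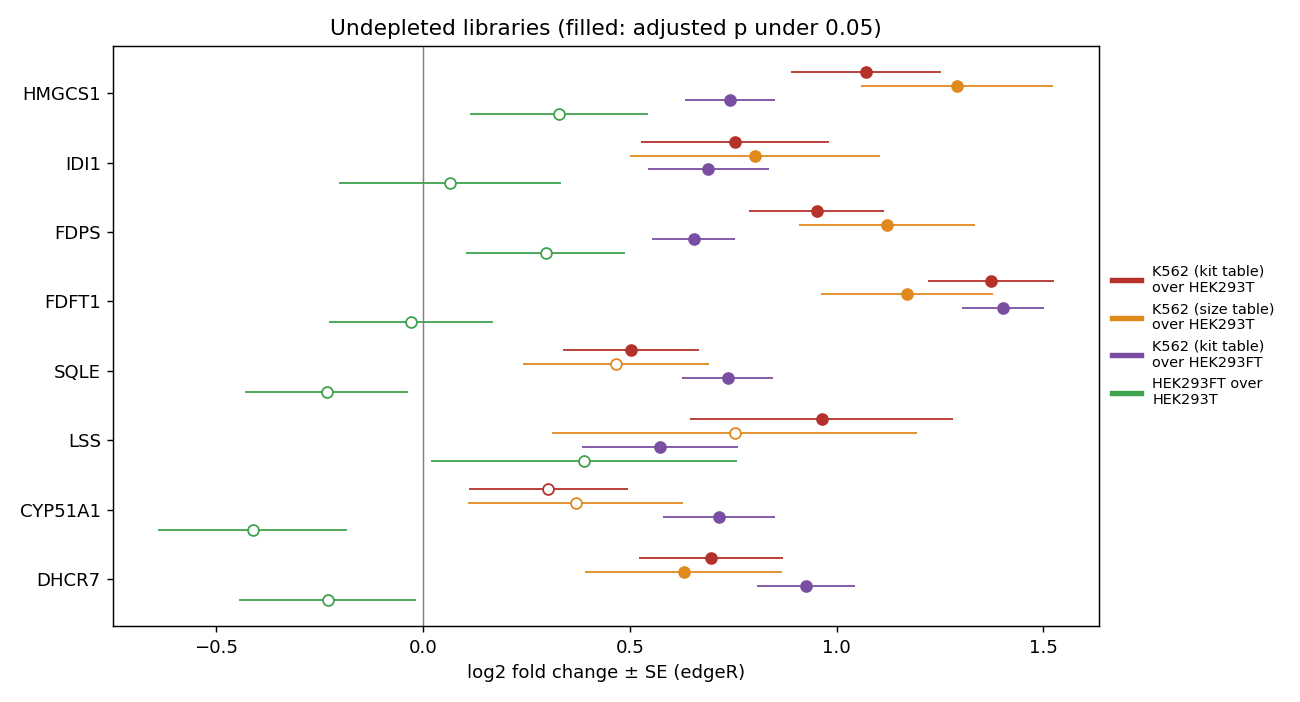
Fitted log2 fold change of each enzyme between undepleted libraries (points, edgeR) with its standard error (bars), for 4 comparisons by colour, filled where the adjusted p is under 0.05. K562 minus HEK differences run from 0.30 to 1.40 and lie to the right of 0 for all 8 enzymes, and HEK293FT minus HEK293T differences run from -0.41 to 0.39 and straddle it.

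HEK293FT gave a second HEK reference, of 1 library, whose spread was assumed to be like that of the other groups. Against it, the K562 kit table had 29.3% of genes called higher, and all 8 enzymes were. FDFT1 was again highest, at 1.40 ± 0.10 (adjusted p = 7.09e-44). DHCR7 followed at 0.93 ± 0.12, then HMGCS1 and SQLE at 0.74 ± 0.11 each. CYP51A1, uncalled against HEK293T, stood at 0.72 ± 0.14 against HEK293FT (adjusted p = 4.91e-07). IDI1 at 0.69 ± 0.15, FDPS at 0.65 ± 0.10 and LSS at 0.57 ± 0.19 completed the calls, with a median of 0.73 over the 8 enzymes and of -0.04 over all genes. DESeq2 called 7, without LSS. The K562 libraries are the same ones as in the comparison with HEK293T.

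Between the HEK lines, edgeR and DESeq2 called 0 of the 8 enzymes and 0 had an unadjusted p under 0.05, while 7.57% of all genes were called by edgeR. The estimates ran from -0.41 ± 0.23 for CYP51A1, lower in HEK293FT, to 0.39 ± 0.37 for LSS. Their intervals are wide, and do not show that the lines are alike. That of CYP51A1 runs from 0.551 to 1.03 as a fold and that of HMGCS1 from 0.937 to 1.68.

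The NEBNext libraries of K562 (size-selection table) and HEK293T gave a like comparison in depleted material, added after the values were seen. It came from a fit of 8 libraries over 4736 genes, undepleted and NEBNext. Unlike the undepleted fit, that fit had a term for size, and K562 was averaged over both size ranges. Here 20.4% of genes were called higher in K562, with 5 of the 8 enzymes, namely FDFT1 (1.71 ± 0.20), FDPS (1.62 ± 0.21), DHCR7 (1.35 ± 0.22), IDI1 (1.12 ± 0.29) and HMGCS1 (1.07 ± 0.22). LSS at 0.65 ± 0.42 and SQLE at 0.35 ± 0.20 were not called. CYP51A1 stood at 0.01 ± 0.21, with an interval of the fold from 0.756 to 1.34.

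Levels were compared between the enzymes as CPM per kilobase of coding sequence. In the undepleted K562 kit libraries FDFT1 was highest at 553 ± 12.2 (SD, n = 2), then FDPS at 395 ± 28.3. IDI1 (274 ± 2.13), DHCR7 (272 ± 31.5) and HMGCS1 (268 ± 17.4) did not differ beyond their spread. SQLE at 234 ± 10.4 and CYP51A1 at 178 ± 1.67 came next, and LSS was lowest at 57.2 ± 2.68. In HEK293T, FDFT1 (229 ± 22.4) and FDPS (222 ± 5.4) led and did not differ beyond their spread, LSS was again lowest at 31.5 ± 1.62, and the other 5, from 133 ± 59.8 for HMGCS1 to 179 ± 38.0 for DHCR7, could not be ordered. In the HEK293FT library FDPS led at 248, ahead of FDFT1 at 207, and LSS stood at 37.9. LSS was the lowest of the 8 in every undepleted library, and its counted transcript has the longest coding sequence of the 8, 2196 nt.

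**Figure D3:**
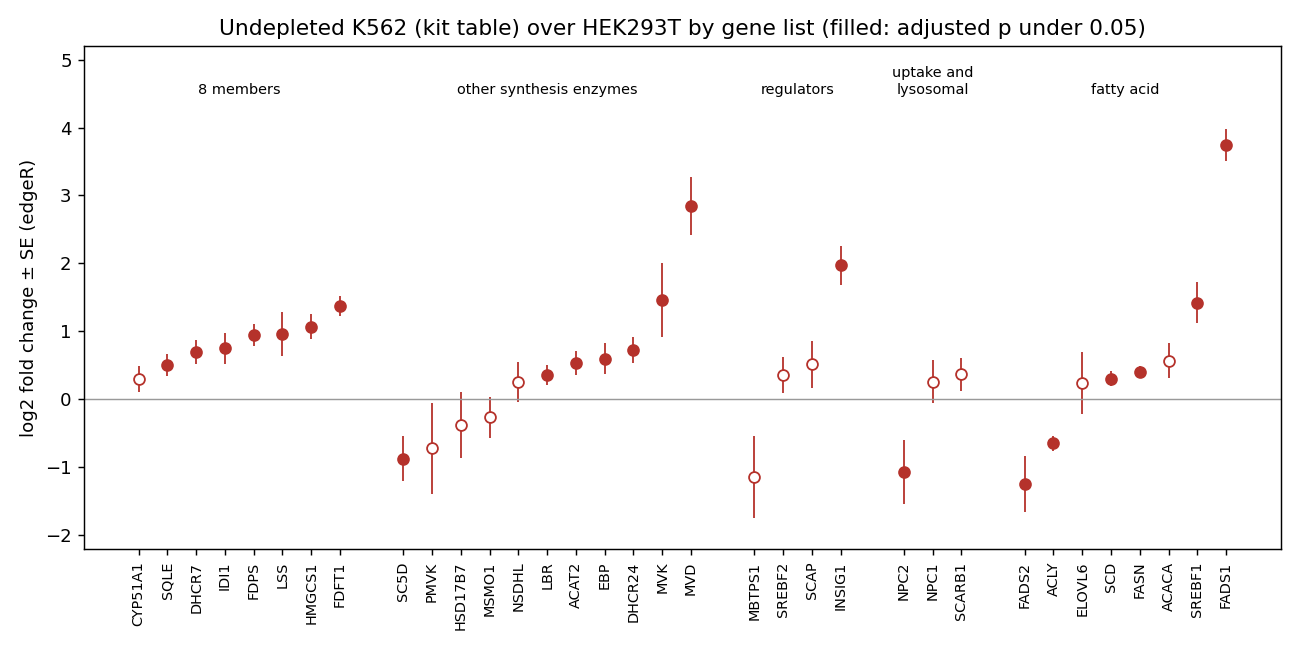
Fitted log2 fold change with its standard error for undepleted K562 (kit table) over HEK293T, for the 8 enzymes and tested genes of 4 other lists, filled where the adjusted p is under 0.05. FADS1 stands highest at 3.75, MVD and MVK rest on 3 counts in each HEK293T library, and LIPA, at 0 counts in K562, is not drawn, nor are genes not reported here.

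The rest of the pathway was taken from lists of 13 other synthesis enzymes, 6 regulators, 5 genes of uptake and lysosomal transport and 8 of fatty acid synthesis. Of 12 other synthesis enzymes tested between the K562 kit table and HEK293T, 7 were called higher and 1 lower, with a median of 0.44. Of all 5551 genes in this comparison, 2461 were called, 1222 of them higher. MVD, which makes IPP from mevalonate diphosphate, had 3 counts in each HEK293T library (25.0 and 19.5 CPM), 61.1 CPM in HEK293FT and 150 and 144 CPM in K562. With so few HEK293T counts no fold is given against that line. Against HEK293FT, MVD was higher in K562 by 1.25 ± 0.20 on the log2 scale. MVK, mevalonate kinase, likewise had 6 counts in the HEK293T pair, and stood 0.89 ± 0.31 higher than in HEK293FT. SC5D, a late desaturase, fell by 0.87 ± 0.33 against HEK293T, from 107 ± 13.4 to 53.6 ± 3.63 CPM.

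Among 4 regulators tested, 1 was called higher, INSIG1, which retains SCAP and is itself a target of SREBP. It measured 33.3 and 91.2 CPM in HEK293T, 62.2 in HEK293FT and 261 and 217 in K562, a rise of 1.97 ± 0.29 (adjusted p = 7.10e-11). Of the 5 uptake genes, 1 was higher and 2 were lower. The counts of regulators and of uptake genes called higher were near the share of all genes called higher, 22.0%. LIPA, the lysosomal acid lipase that frees cholesterol taken up in lipoproteins, measured 138 ± 29 CPM in HEK293T and 62.2 in HEK293FT and had 0 counts in all 4 undepleted K562 libraries. Against a floor of 3 counts per library, LIPA was at least 49.7-fold lower in the kit table than in HEK293T and at least 22.4-fold lower than in HEK293FT. NPC2, which passes cholesterol out of the lysosome, was lower by a margin at the threshold (adjusted p = 0.0499), at 59.0 ± 36.3 CPM in HEK293T and 27.5 ± 7.73 in K562.

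Of 8 genes of fatty acid synthesis, 4 were higher and 2 lower, beside 22.0% of all genes called higher. FADS1, a desaturase of polyunsaturated fatty acids, measured 41.7 and 71.7 CPM in HEK293T, 65.5 in HEK293FT and 704 and 756 in K562, a rise of 3.75 ± 0.23. FADS2, the desaturase of the preceding step, which lies beside FADS1 on chromosome 11, fell by 1.24 ± 0.41, from 82.6 ± 24.6 to 31.8 ± 13.9 CPM. SREBF1, which encodes SREBP-1, rose by 1.42 ± 0.31. No list was tested as a set.

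The effect of rRNA depletion on the enzymes was then taken within each table. In HEK293T, 0 of the 8 were called by edgeR or DESeq2 with any of the 3 kits. Ribo-Zero Gold and RiboCop had 0 enzymes with an unadjusted p under 0.05, against 0.068% and 0.0% of all genes called. With Ribo-Zero Gold the estimates lay between -0.15 and 0.07. With RiboCop they lay between -0.58, for IDI1, and 0.27. NEBNext called 3.24% of all genes. FDPS measured 283 and 274 CPM without depletion and 203 and 159 with NEBNext, which do not overlap, and its estimate was -0.64 ± 0.26 (unadjusted p = 0.0148, adjusted p = 0.192). FDFT1 measured 267 and 306 without depletion and 150 and 214 with NEBNext, at -0.60 ± 0.25 (adjusted p = 0.213). These were the 2 enzymes with an unadjusted p under 0.05. The median of the 8 was -0.41, with a median of 0.00 over all genes, and CYP51A1 at 0.30 ± 0.24 lay at the other end. Both groups were shallow for these genes, at 7 to 76 counts per enzyme with NEBNext and 8 to 50 without depletion.

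In K562, NEBNext called 2.72% of all genes and 0 of the 8 enzymes by edgeR or DESeq2, with 0 at an unadjusted p under 0.05. The estimates lay between -0.20 (LSS) and 0.29 (DHCR7). The difference of the NEBNext effect between K562 and HEK293T was tested as an interaction, which called 0.296% of genes and 0 of the enzymes by either tool. DHCR7, at 0.78 ± 0.34, was the 1 enzyme with an unadjusted p under 0.05 (adjusted p = 0.548). FDFT1 and FDPS, with 0.57 ± 0.31 and 0.49 ± 0.32, were not past it, so a different response of these enzymes in the lines was not detectable at this depth.

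FastSelect, riboPools and riboPools with cold elution left the K562 enzymes close to their undepleted levels. Over these 3 conditions and the undepleted pair, 8 libraries in all, HMGCS1 ran from 399 to 455 CPM (median 439), IDI1 from 233 to 270 (257), FDPS from 471 to 521 (496), and FDFT1 from 660 to 715 (689). SQLE ran from 365 to 415 (394), LSS from 85.8 to 130 (115), CYP51A1 from 261 to 290 (273) and DHCR7 from 356 to 437 (410). The largest estimate in size was 0.23 for FastSelect, 0.18 for riboPools and 0.17 for cold elution, and edgeR and DESeq2 called 0 of 8 in each, beside 0.0197%, 0.0887% and 0.237% of all genes. At an unadjusted p under 0.05 there were 2 enzymes for FastSelect, 0 for riboPools and 1 for cold elution. Cold elution differed from riboPools by at most 0.05 for any enzyme, with 0 calls by either tool, 0 at an unadjusted p under 0.05 and 0.0296% of all genes called.

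**Figure D4:**
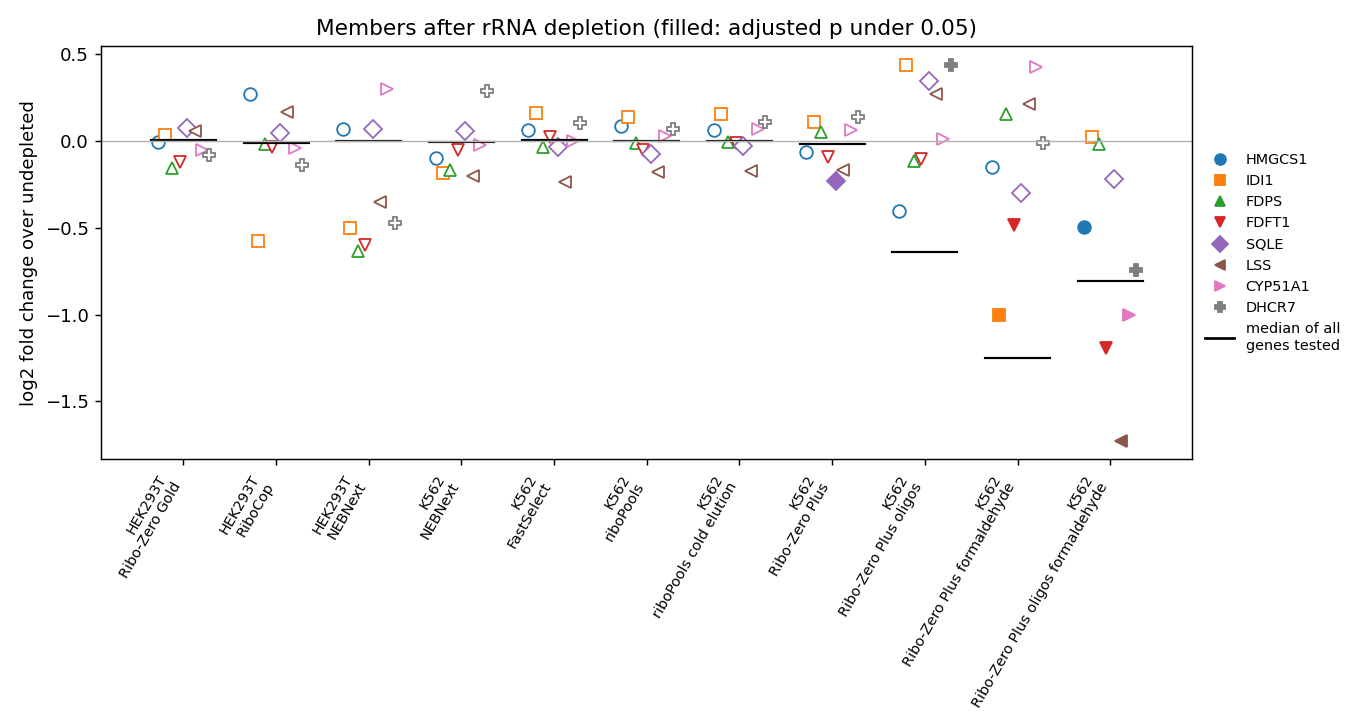
Fitted log2 fold change of each enzyme (symbols, filled where the adjusted p is under 0.05) over the undepleted libraries of the same table, for 11 conditions, with the median of all genes tested as a black line. Ribo-Zero Plus with additions stands apart, with all-gene medians between -0.64 and -1.25.

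Ribo-Zero Plus had the most calls among all genes of the K562 kits. Each of its 4 conditions is 1 library compared with the undepleted pair, with the spread taken from the replicated conditions. Ribo-Zero Plus alone called 20.4% of all genes (11.4% lower), and SQLE was the 1 enzyme called, lower by 0.23 ± 0.08 (adjusted p = 0.0236). SQLE measured 415 and 390 CPM without depletion and 339 with Ribo-Zero Plus. The call of SQLE was lost with DESeq2 and without undepleted replicate 1. Without that replicate DHCR7 was called instead, higher at 0.27. Beside SQLE, the other 7 estimates of Ribo-Zero Plus alone under TMM lay between -0.17 and 0.14, with FDFT1 at -0.09. When oligos and formaldehyde were fitted as additive terms, the Ribo-Zero Plus value was an average over its 4 libraries, not Ribo-Zero Plus alone. For that average SQLE was not called, and FDFT1 was called lower at -0.48 (adjusted p = 0.00831).

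With additions to Ribo-Zero Plus, the libraries held 184722 counts (oligos), 116742 (formaldehyde) and 165153 (both), and the scaling changed some of the calls. The undepleted pair held 1135460 and 1031889. The all-gene medians of these comparisons cover every gene tested, and genes of like abundance were not compared. A place above such a median is therefore not shown to be particular to the enzymes. With oligos, 29.4% of genes were called (9.5% higher), the median of all genes was -0.64 and that of the 8 enzymes was 0.14, and all 8 lay above the all-gene median. DHCR7 measured 585 CPM against 419 and 356 undepleted, and was called higher at 0.44 ± 0.16 (adjusted p = 0.0250), a call lost without undepleted replicate 2. With the size factors of DESeq2 in edgeR, SQLE (0.53), DHCR7 (0.62) and IDI1 (0.62) were called higher, as they were with total counts. With formaldehyde, 25.7% of genes were called (18.4% lower), the all-gene median was -1.25 and that of the enzymes was -0.08, and again all 8 lay above the all-gene median. IDI1 measured 137 CPM against 235 and 233 and was called lower at -1.0 ± 0.33, as was FDFT1 at -0.48 ± 0.17. With DESeq2 size factors or total counts neither was called, and CYP51A1 was called higher under both, at 0.65 and 0.66.

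With oligos and formaldehyde together, 30.1% of genes were called (20.7% lower) and 5 of the 8 enzymes were lower, with 5 of 8 above the all-gene median of -0.81. FDFT1 fell most firmly, from 703 and 681 CPM to 339, by 1.19 ± 0.17 on the log2 scale (adjusted p = 3.71e-09). LSS fell by 1.73 ± 0.48 to 42.4 CPM, which rests on 7 counts, CYP51A1 fell by 1.0 ± 0.27 to 151 CPM and DHCR7 by 0.74 ± 0.21 to 260 CPM. HMGCS1, at -0.50 ± 0.19 (adjusted p = 0.0382), lost its call under each other scaling, and DHCR7 under DESeq2 size factors. FDPS, at 551 CPM, and IDI1, at 266 CPM, lay at -0.01 and 0.02. FDFT1, LSS and CYP51A1 were lower under TMM, DESeq2 size factors and total counts, and DESeq2 itself called 1 of the 8.

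HEK293FT had 1 library per condition, so no test was made. With custom oligos the enzymes stood between 0.956 (FDFT1) and 1.05 (SQLE) times their undepleted CPM. SQLE measured 239 CPM without depletion and 251 with custom oligos, with a ratio interval from 0.912 to 1.22 that covers counting error only, and FDFT1 measured 259 and 247, from 0.832 to 1.10. The intervals of all 8 enzymes include 1. Among the 5225 genes that averaged 100 counts or more, 1.3% differed by at least 1.5-fold, and none of the 8 enzymes did.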

How the data were processed

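For each of 26 libraries the deposited values are raw counts of reads on 1 coding sequence per row, whole numbers in 4 tables. The deposited RPM tables hold the same counts divided by the library total and were not used. Per the submitters' processing notes, CASAVA 1.8 and STAR were used with GRCh38/hg38. Handling of duplicate and multi-mapping reads is not given in the sources used here, so no interval accounts for it. The intervals of the HEK293FT ratios cover counting error only. Those of the edgeR folds come from the fitted SE and include the spread between libraries. Depletion steps were not used, as that label mostly repeats the adapter. The tables held 0 columns of other samples.

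CPM were computed over all counted transcripts. Of the transcript identifiers, 97.51% matched GENCODE release 29. Tests used edgeR 4.0.16 under R 4.3.3, filterByExpr at a minimum count of 10, TMM, an adjusted p under 0.05 and 1 term per condition, with size as an additive term in the K562 size-selection table. An earlier fit of the kit table used additive terms for oligos and formaldehyde, which is an alternative here. In it the Ribo-Zero Plus value is an average over all libraries of that kit. Undepleted libraries of all tables entered 1 fit, which had no term for size. Alternatives were DESeq2 1.42.0, other scalings, filters of no minimum or a mean of 50 counts, a replicate block and leaving out each library. Ratios of 2 libraries carry exact conditional binomial intervals (scipy 1.17.1, Python 3.11.15) at 95%, and a floor of 3 counts. Labels do not say that replicates were separate cultures, so p-values measure the spread between these libraries, which may be technical. Replicate pairs had a chi-square per degree of freedom of 1.03 to 1.20. In the RiboCop pair that test found no difference, and both libraries were kept, as their barcodes and totals differ.

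In simulated data with 200 genes changed 2-fold, 58.0% were recovered for K562 against HEK293T (4776 genes), 65.5% for NEBNext in HEK293T (4160), 83.0% for FastSelect (9965) and 72.5% for Ribo-Zero Plus (9954), and 2.52%, 5.07%, 4.05% and 5.23% of calls were false. The changed genes were drawn from those with a mean of at least 20 counts, and no other gene differed. In the data, 2461 of 5551 genes were called between the K562 kit table and HEK293T, so the rates hold for the simulated setting only.

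The 8 enzymes and the other lists were chosen with earlier results of these data known. Of the other lists, at most 3 called genes each with the largest change between the K562 kit table and HEK293T were named, and up to 5 genes of most like pattern. A few genes of these lists and markers, included in the counts, are not reported here by name.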

Additional observations from a re-analysis of the deposited data

How the results depend on the processing

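Single estimates were recomputed for all 8 enzymes in the NEBNext and cell line comparisons, and for the enzymes called under TMM in those with Ribo-Zero Plus. Of these, 273 of those under another setting and 136 of those with 1 library left out kept their direction and call, 32 and 10 lost the call, and 8 and 8 changed sign. Calls of K562 kit table over HEK293T numbered 4 with DESeq2 and 5 to 7 with 1 library left out. Those of the K562 size-selection table over HEK293T numbered 3 with total counts, with DESeq2, without a low-count filter and with a mean of at least 50 counts, and 3 to 5 with 1 library left out, 3 without HEK293T undepleted replicate 1 or without the 20 to 34 nt library. Ribo-Zero Plus alone had 0 calls with DESeq2. With oligos it had 3 calls with DESeq2 size factors, 3 with total counts, 3 with a mean of at least 50 counts, and 0 to 1 with an undepleted library left out, 0 without K562 undepleted replicate 2. With formaldehyde it had 1 with DESeq2 size factors, 1 with total counts and 0 with DESeq2. With both it had 3 with DESeq2 size factors, 1 with DESeq2, and 4 to 5 with an undepleted library left out. The enzymes called under those settings can be others than under TMM. Beyond the scaling and the number of libraries or genes, the cause was not tested. Over all genes, those called higher in the K562 size-selection table than in HEK293T numbered 731 of 5551 with total counts and 569 of 5551 with DESeq2. They numbered 835 of 14111 without a low-count filter and 441 of 2022 with a mean of at least 50 counts.

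Of the other Ribo-Zero Plus estimates, uncalled under TMM, 3 gained a call and 5 changed sign, both with DESeq2 size factors and with total counts. SQLE and IDI1 with oligos and CYP51A1 with formaldehyde gained it. FDPS with oligos moved from -0.11 to 0.064 and 0.031, and FDFT1 from -0.10 to 0.076 and 0.043. With formaldehyde HMGCS1 moved from -0.15 to 0.076 and 0.085, and DHCR7 from -0.010 to 0.21 and 0.22. With both, FDPS moved from -0.015 to 0.20 and 0.15.

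Estimates that changed sign in the other comparisons were uncalled before and after. For K562 NEBNext, SQLE moved to -0.012 and LSS to 0.079 with DESeq2, FDFT1 to 0.029 and CYP51A1 to 0.049 without a filter, and SQLE to -0.0016 with a mean of at least 50 counts. For HEK293FT over HEK293T, IDI1 moved to -0.074 with total counts and -0.0025 with a mean of at least 50 counts, and FDFT1 to 0.049 without a filter. Without HEK293T replicate 1 or 2, IDI1 ran from -0.073 to 0.38, FDFT1 from -0.074 to 0.14 and DHCR7 from -0.37 to 0.087. For HEK293T NEBNext, HMGCS1 ran from -0.52 to 0.68 and SQLE from -0.40 to 0.32 with 1 library left out. For the K562 size-selection table over HEK293T, LSS ran from -0.66, without the 20 to 34 nt library, to 1.10.

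With a replicate block, 0 enzymes were called in the HEK293T kits and in the 4 replicated comparisons of the K562 kit table, as without it. Only 2 numbers exist. Deviations of same-numbered libraries correlated at 0.09 to 0.16 over 368 genes in HEK293T and at -0.04 to 0.02 over 3602 genes in K562. All 6 HEK293T pairs were positive and 5 of the 6 exceeded 0.1, as did 0 of the K562 pairs. The main tests were unpaired because no label says that a number marks a shared culture. The shift of several enzymes with the HEK293T number is given in the other observations. Leaving out a library of the K562 size-selection table leaves no residual degree of freedom within it, so the NEBNext comparison there has no such value.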

Other observations

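In the HEK293T table several enzymes were higher in the libraries numbered 2 in the titles, and 1 of the 8 was called, in a comparison added after the values were seen. HMGCS1, IDI1, FDFT1, SQLE and DHCR7 had a higher CPM in the library numbered 2 than in that numbered 1 in 4 of 4 conditions (without depletion, Ribo-Zero Gold, RiboCop and NEBNext). The share of all genes that did so was not counted, so the pattern is not shown to be particular to these enzymes. DHCR7 measured 217 and 293 without depletion, 211 and 275 with Ribo-Zero Gold, 173 and 272 with RiboCop and 128 and 224 with NEBNext. SQLE measured 283 and 326, 239 and 396, 250 and 358, and 233 and 378 in the same order. LSS and CYP51A1 were higher in number 2 in 3 of 4 conditions, and FDPS in 1. The sum over the 8 enzymes was 1.16 to 1.45 times as high in number 2. In the edgeR fit with a term for the number, 0.068% of 4410 genes were called, 3 genes, and SQLE was 1 of them at 0.60 ± 0.13 (adjusted p = 0.0139). The other 2, named after their values were seen, were EEF1A1, lower in number 2, and HIST1H2AM, higher. The median over the enzymes was 0.41 and over all genes 0.01. At an unadjusted p under 0.05 there were 5 of the 8 enzymes, and the share of all genes at that threshold is not given. The same term in the K562 kit table called 0 of 9761 genes, with a median of 0.01 over the enzymes, estimates between -0.07 and 0.04, and 1 enzyme at an unadjusted p under 0.05. The labels do not say what the number stands for.

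Across 25 libraries with at least 100000 counts, the log2(CPM + 1) of each enzyme was centred on its mean and divided by its SD. The average of these values over the 8 enzymes was compared with 2555 other genes with a mean of at least 50 CPM in each table. The genes most like it, by Pearson's r, were GMPS at 0.93, AL662899.3 at 0.93, CSNK2B at 0.93, MYL12A at 0.92 and VCL at 0.92, beside a median of -0.09 and a 99th percentile of 0.90 over all genes. The libraries share cell lines, tables and depth, so the values describe mainly how a gene differs between K562 and HEK libraries. GMPS makes GMP from XMP, and measured 259 CPM in undepleted HEK293T, 245 in HEK293FT and 477 in the K562 kit table. AL662899.3 and CSNK2B, the regulatory subunit of casein kinase 2, share 557 nt of coding sequence in the annotation, so their counts cannot be told apart over that stretch. The enzymes themselves, which are part of that average, correlated with it at 0.98 (DHCR7), 0.97 (FDFT1), 0.91 (HMGCS1), 0.87 (FDPS), 0.84 (IDI1 and SQLE), 0.77 (LSS) and 0.62 (CYP51A1).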
